A study of Mus musculus with 12 samples.

Results

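Matrix metalloproteinases (MMPs) other than Mmp9 were examined as a group of 9 genes, Mmp2, Mmp3, Mmp8, Mmp10, Mmp11, Mmp12, Mmp13, Mmp14 and Mmp19, chosen by gene symbol from the 25116 genes of the deposited count table. The induced group was 7 tumours from Tie2CreER;ERKi mice given tamoxifen, and the control group was 5 tumours from mice of the same genotype and C57BL/6J background given a control injection instead. In these hosts a tamoxifen-activated recombinase under the Tie2 promoter, which is active in endothelial cells and is also known to be active in some blood-forming cells, switches on a knock-in gene for endorepellin, the C-terminal fragment of perlecan, which is known to inhibit angiogenesis. All tumours were allografts of E0771, a mouse triple-negative breast cancer line, in the mammary fat pad and were collected on day 22. The labels state neither the ages of the mice nor whether the control injection was the tamoxifen vehicle. The control hosts carried the same transgenes without induction, and tamoxifen itself differed between the groups, so an effect of tamoxifen and an effect of endorepellin cannot be told apart.

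MMPs are zinc-dependent proteases that cut collagens, elastin and other matrix proteins. Most are secreted as inactive proenzymes, are activated when a propeptide is cut away, and are blocked by tissue inhibitors of metalloproteinases (TIMPs). In tumours they are known to come both from cancer cells and from fibroblasts, macrophages and neutrophils of the host, and they take part in invasion, vessel growth and the release of matrix fragments. Messenger RNA levels, which were measured here, do not show how much of an enzyme was active.

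All 9 genes had counts in every tumour and passed the filter on low counts, and none passed the test between induced and control tumours. Mmp12 and Mmp13 had the highest values in induced tumours relative to control tumours, and Mmp3 and Mmp19 the lowest. By edgeR's quasi-likelihood test the adjusted p was 0.99989 for each of the 9, and 0 of 15199 genes tested, a background of 0%, had an adjusted p under 0.05. DESeq2, limma-voom and an exact permutation test over all genes also called 0 members at an adjusted p under 0.05, with the same background of 0%. At an unadjusted p under 0.05 edgeR had 2 members, Mmp12 and Mmp3, against a background of 2.13% of all genes tested. That is 1 member on the higher side, where the background was 0.592%, and 1 on the lower side, where it was 1.54%. DESeq2 had 3 members at that level (Mmp12, Mmp3 and Mmp13), with a background of 2.44%, limma-voom 3 (Mmp12, Mmp13 and Mmp2), with a background of 6.55%, and the exact permutation test 1 (Mmp12), with a background of 1.96%. The members were chosen with earlier results of these data known, so these counts cannot be weighed against their backgrounds. Without control 1, the unadjusted p of Mmp3 in edgeR's test was 0.60. In no member were the 2 groups of tumours free of overlap, and 0.0592% of all genes had groups that did not overlap.

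The libraries differed in ways that bear on these values. Total counts ranged from 18993192 to 28372821. Perlecan (Hspg2), whose C-terminal fragment the transgene encodes, was at 420 to 699 CPM in induced tumours and 468 to 659 CPM in control tumours, which does not measure the transgene. Epithelial genes were scarce, with 7 of 7 markers summing to 2.53 to 5.11 CPM in induced tumours and 1.72 to 8.11 CPM in control tumours, so the labelled carcinoma identity was not visible in keratins. Control 1, control 2, induced 3 and induced 4 stood apart, with median Spearman correlations to the other tumours of 0.947 to 0.971, where the other 8 had 0.982 to 0.987. These 4 also had the highest summed fibroblast markers, 1295 to 3131 CPM against 611 to 1111 CPM in the other 8. A sum gives most weight to abundant genes. By the mean log2 CPM over these markers, relative to the mean of all tumours, control 1 was at 2.45 and induced 4 at 1.3. Control 2 was at 0.0974, and induced 3, at -0.132, was close to induced 5 of the other 8, at -0.151. By that measure induced 3 was thus not set apart. Fits without these 4 libraries are given beside the results they touch. In such bulk tissue, fewer cells of a type and less RNA per cell cannot be told apart.

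Of the 9 genes, 5 lie in one cluster of MMP genes on the plus strand of chromosome 9 between 7272514 and 7568485 (GRCm38), a span of 296 kb. From the centromeric side these are Mmp13, Mmp12, Mmp3, Mmp10 and Mmp8, with starts 71.9, 101.4, 56.5 and 56.1 kb apart. Mmp1b and Mmp1a lie in the same stretch, Mmp1b on the minus strand after Mmp12 and Mmp1a between Mmp3 and Mmp10. Mmp11 (chromosome 10, 75923222 to 75936496, minus strand) and Mmp19 (chromosome 10, 128790910 to 128800824, plus strand) are far apart on one chromosome. Mmp14 is on chromosome 14 (54431612 to 54445364, plus strand) and Mmp2 on chromosome 8 (92827291 to 92853420, plus strand). Some exons overlap other genes, and the labels do not say whether counting used strand. Of the exonic bases of Mmp19, 22.3% also lie in exons of Tmem198b and 6.00% in exons of Gm47093, both on the opposite strand. The shared part was 5.58% for Mmp11 (with Chchd10) and 2.17% for Mmp12 (with Mmp1b), so counts of these 3 genes are uncertain, and the share of reads from the overlaps was not measured.

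The start regions of Mmp3, Mmp10, Mmp13 and Mmp12 are shown because Mmp3 with Mmp10 and Mmp12 with Mmp13 formed pairs with like values, described further on. Whether promoter letters bear on these values was not tested. RefSeq promoter windows (GRCm38.p6, 250 bases before to 50 after a start) matched 7 of the 9 members in 8 windows. Capitals mark 3 motifs searched on both strands. These were the AP-1 element TGAGTCA (reverse TGACTCA), the TATA box TATAAA (reverse TTTATA) and the PEA3 element AGGAAG (reverse CTTCCT), which binds ETS factors. No marked motifs overlapped in the windows printed.
Mmp3, chr9:7445572-7445871, plus strand: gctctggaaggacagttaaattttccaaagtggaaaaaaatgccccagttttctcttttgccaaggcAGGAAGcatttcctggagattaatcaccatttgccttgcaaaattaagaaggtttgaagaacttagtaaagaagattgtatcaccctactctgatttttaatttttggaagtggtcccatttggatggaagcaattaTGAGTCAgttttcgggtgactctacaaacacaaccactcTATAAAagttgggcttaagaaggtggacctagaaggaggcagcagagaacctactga
Mmp10, chr9:7502092-7502391, plus strand: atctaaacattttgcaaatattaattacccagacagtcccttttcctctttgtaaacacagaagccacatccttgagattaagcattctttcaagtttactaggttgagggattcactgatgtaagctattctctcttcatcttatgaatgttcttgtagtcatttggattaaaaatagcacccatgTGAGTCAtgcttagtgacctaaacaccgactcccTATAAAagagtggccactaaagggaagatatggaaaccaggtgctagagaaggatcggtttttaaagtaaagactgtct
Mmp13, chr9:7272264-7272563, plus strand: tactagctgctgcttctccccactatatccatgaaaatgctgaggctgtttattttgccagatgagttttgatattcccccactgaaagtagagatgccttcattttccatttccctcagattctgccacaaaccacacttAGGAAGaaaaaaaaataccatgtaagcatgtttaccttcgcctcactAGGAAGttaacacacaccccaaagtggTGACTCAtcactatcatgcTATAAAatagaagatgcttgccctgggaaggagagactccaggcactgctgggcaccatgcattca
Mmp12, downstream start, chr9:7347124-7347423, plus strand: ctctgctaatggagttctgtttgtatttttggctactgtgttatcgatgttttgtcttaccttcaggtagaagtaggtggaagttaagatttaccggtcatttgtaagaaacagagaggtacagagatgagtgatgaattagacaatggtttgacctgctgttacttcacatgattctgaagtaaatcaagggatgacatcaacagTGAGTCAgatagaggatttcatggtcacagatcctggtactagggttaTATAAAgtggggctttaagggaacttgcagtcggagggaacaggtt

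An AP-1 element was present in 4 of the 8 member windows, the 4 printed above, and in 5.20% of all 32851 windows. Counted from the start, with the base just before it at -1, the element began at -46 in Mmp3, -63 in Mmp10, -35 in Mmp13 and -44 in the downstream Mmp12 window. A TATA box was present in 5 of 8 member windows and in 13.6% of all windows. In Mmp3, Mmp10 and Mmp13 it stood between the AP-1 element and the start, beginning at -7, -29 and -16. In the downstream Mmp12 window it began at 5, past the start. A PEA3 element was present in 5 of 8 member windows and in 35.4% of all windows, with copies at -183 in Mmp3 and at -109 and -62 in Mmp13. The windows of Mmp14 and Mmp11 and the upstream Mmp12 window held neither AP-1 nor TATA letters. G and C made up 56% of the Mmp14 window and 67% of the Mmp11 window, against 37.7% to 46% in the chromosome 9 windows. A match is a description of the letters and not a measured binding site.

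Levels were compared between genes as CPM per kilobase of exon, and Mmp14 was the most abundant by far. Mmp14, the membrane-type protease MT1-MMP that cuts collagen at the cell surface, had a median of 63.9 CPM per kilobase over the 12 tumours, with a range of 44.9 to 86.6. Mmp2 followed at 12.5, Mmp11 at 9.02 and Mmp13 at 7.27 CPM per kilobase. Mmp12, Mmp19 and Mmp3 lay close together at 2.79, 2.35 and 2.19 CPM per kilobase, Mmp8 was at 1.33 and Mmp10 was lowest at 0.535. The ranges of Mmp14 and Mmp2 did not meet, and Mmp2 was above Mmp11 in 12 of 12 tumours. Mmp11 was above Mmp13 in 8 of 12 tumours, Mmp12 above Mmp19 in 6 of 12 and Mmp19 above Mmp3 in 5 of 12. Per kilobase of exon these neighbours in the order were thus not separated. Counted per kilobase of the longest coding transcript the order was the same, but Mmp12 was at 5.60 and Mmp14 at 117.5 CPM per kilobase. Their annotated exons add up to much more than a single transcript. By that count Mmp19 was at 2.45 and Mmp3 at 2.19, so the closeness of Mmp12 to these 2 depends on the length used. In plain CPM, Mmp14 made up 55.9% to 82.7% of the sum of the 9 genes in a tumour.

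**Figure D1:**
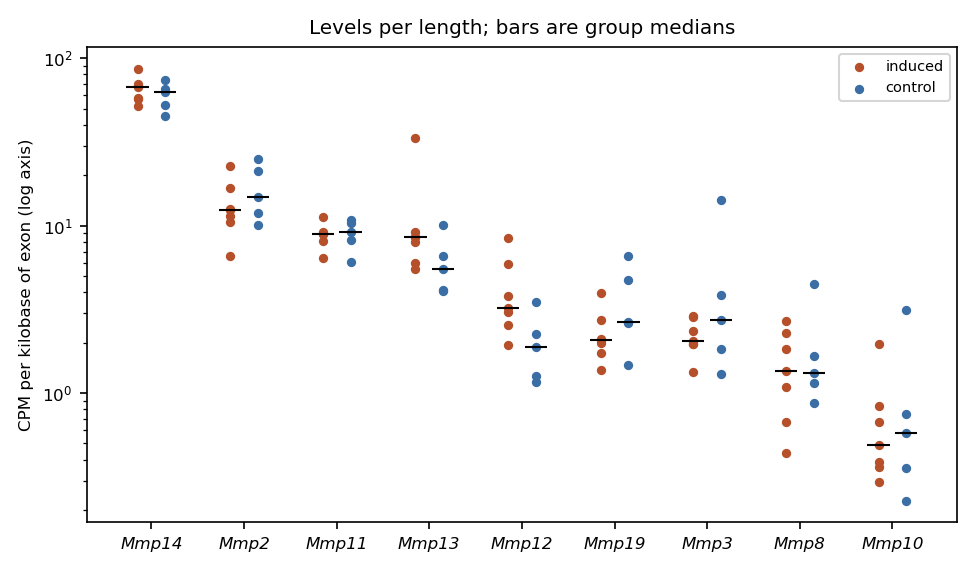
CPM per kilobase of exon on a log axis for the 9 genes, ordered by their median over all tumours, with induced tumours (brown, n = 7) left of control tumours (blue, n = 5), 1 point per tumour and a bar at each group median. Mmp14 sits above all others, and the ranges of Mmp12, Mmp19 and Mmp3 overlap.

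Neither Mmp14 nor its partner Mmp2 passed the test, and in both genes the 2 groups of tumours overlapped. MT1-MMP is known to activate the proenzyme of Mmp2, gelatinase A, at the cell surface. Mmp14 ranged from 309 CPM in induced 4 through a median of 403 to 516 CPM in induced 2, and was at 268, 373, 444, 314 and 388 CPM in control 1 to control 5. The induced and control ranges overlapped, and the highest value was that of induced 2 and the lowest that of control 1. Its log2 fold change was 0.13 (SE 0.15, 95% interval -0.19 to 0.45), the narrowest interval of the 9 members in this fit.

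Mmp2 ranged from 22.0 CPM in induced 6 through a median of 42.0 to 76.8 CPM in induced 3, and was at 84.7, 40.1, 34.0, 50.3 and 71.7 CPM in control 1 to control 5. Control 1, induced 3 and control 5 were high, and induced 6 stood below every control tumour. Its log2 fold change was -0.33 (SE 0.29, interval -0.94 to 0.29), and it was -0.14 without control 1. Without the 4 libraries that stood apart it was -0.54, with an adjusted p of 0.990 in edgeR's test.

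**Figure D2:**
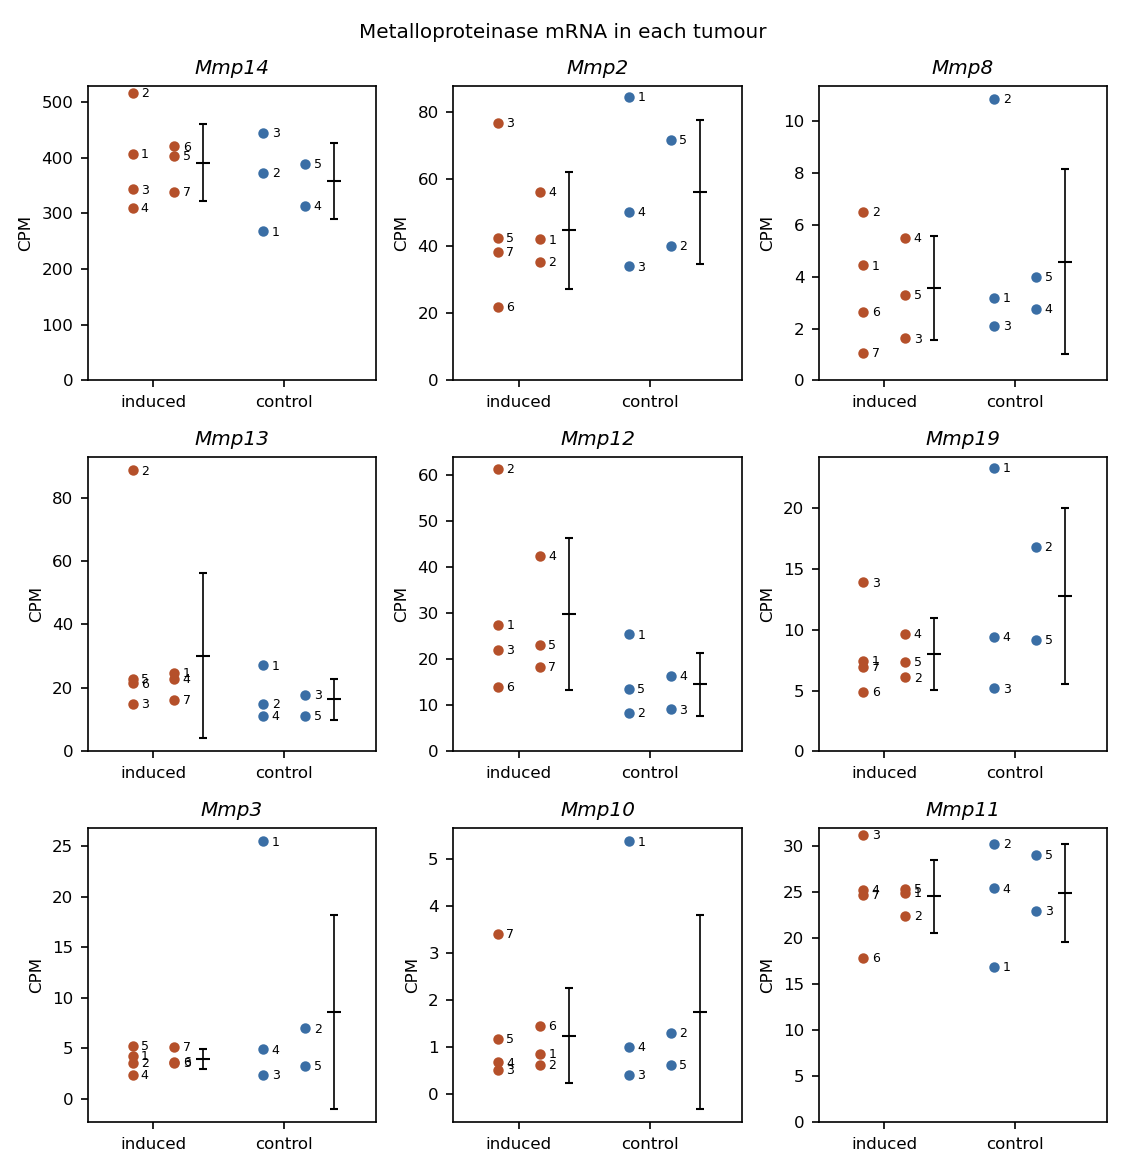
CPM of each gene in each tumour, with induced tumours (brown) left of control tumours (blue), the replicate number beside each point, and the mean and SD of each group in black (n = 7 and n = 5). Mmp12 has its highest values in induced 2 and induced 4, Mmp13 in induced 2, and Mmp3, Mmp10 and Mmp19 in control 1.

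The collagenase Mmp13 and the elastase Mmp12 had higher values in induced tumours, without passing the test. Mmp12, macrophage elastase, ranged from 13.9 CPM in induced 6 through a median of 23.2 to 61.1 CPM in induced 2, and was at 25.3, 8.41, 9.09, 16.3 and 13.6 CPM in control 1 to control 5. All 7 induced tumours lay above the control median of 13.6 CPM, and 3 lay above every control tumour. Its log2 fold change was 1.03 (SE 0.38, interval 0.22 to 1.85, adjusted p = 0.99989), a fold of 2.05. With any single tumour left out it stayed between 0.76 and 1.32, with unadjusted p of 0.0042 to 0.0478, and it was 1.13 without the 4 libraries that stood apart. The difference in mean log2 CPM was 0.98, with a 95% interval of 0.07 to 1.90 by the exact permutation test (two-sided, p = 0.0391, adjusted p over all genes tested = 1).

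Mmp12 is set beside the macrophage and monocyte markers here. Of the 12 genes of that list, 11 were lower and 1 higher in induced tumours, none of them past the test. Of all genes tested, 50.2% were lower. The list summed to 173 to 876 CPM (median 339) in induced tumours and 255 to 1611 CPM (median 348) in control tumours. After control 1, the next highest sum of a control tumour was 426 CPM. The highest sums were in control 1, which had the highest Mmp12 of the control tumours, and in induced 4, which had the second highest of all at 42.4 CPM. In induced 2, where Mmp12 was highest, the sum was 361.9 CPM. The Spearman correlation of Mmp12 with the mean log2 CPM of the list was 0.45 over the 12 tumours and 0.60 over the 8 left without those that stood apart, given as a description. Its correlation with the 3 epithelial markers tested was higher, at 0.61 over the 12 and 0.83 over the 8. That with the 4 adipocyte markers tested was 0.56 over the 12 and 0.29 over the 8. Mmp13 had a higher correlation than Mmp12 with the macrophage and monocyte list, at 0.57 over the 12 and 0.81 over the 8. None of the 12 macrophage and monocyte markers was at 0 in all tumours. The part of macrophage content in the Mmp12 and Mmp13 values was not tested.

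Mmp13, collagenase-3, the main interstitial collagenase of rodents, ranged from 14.7 CPM in induced 3 through a median of 22.7 to 88.6 CPM in induced 2. It was at 27.0, 14.7, 17.5, 10.9 and 11.1 CPM in control 1 to control 5. The value of induced 2 stood far above the rest, and the other 6 induced tumours lay within the control range. Over all tumours the log2 fold change was 0.89 (SE 0.44, interval -0.06 to 1.83), a fold of 1.85, and in the fit without induced 2 it was 0.32 (SE 0.24). It was 1.38 (SE 0.64) without the 4 libraries that stood apart. Of the 7 induced tumours, 6 lay clearly above the control median of 14.7 CPM, and induced 3 had the same value to 3 digits.

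Mmp8, the collagenase stored in neutrophil granules, ranged from 1.07 CPM in induced 7 through a median of 3.28 to 6.49 CPM in induced 2. It was at 3.19, 10.9, 2.10, 2.77 and 4.01 CPM in control 1 to control 5. The group medians were nearly equal, and the high value was that of control 2. Its log2 fold change was -0.36 (SE 0.48, interval -1.40 to 0.68) and turned to 0.23 without control 2 and 0.25 without the 4 libraries that stood apart. Control 2 also had the highest summed level of the 10 neutrophil markers, 127.7 CPM, where induced tumours held 11.8 to 30.4 CPM and control tumours 13.4 to 127.7 CPM. Of the 6 neutrophil markers tested, 2 were higher and 4 lower in induced tumours, none past the test, and none of the 10 was at 0 in all tumours. The Spearman correlation of Mmp8 with the neutrophil list was 0.59 over the 12 tumours and 0.43 over the 8, and that with the macrophage and monocyte list was 0.78 over the 12 and 0.90 over the 8. The part of neutrophil or macrophage content in the Mmp8 values was not tested.

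**Figure D3:**
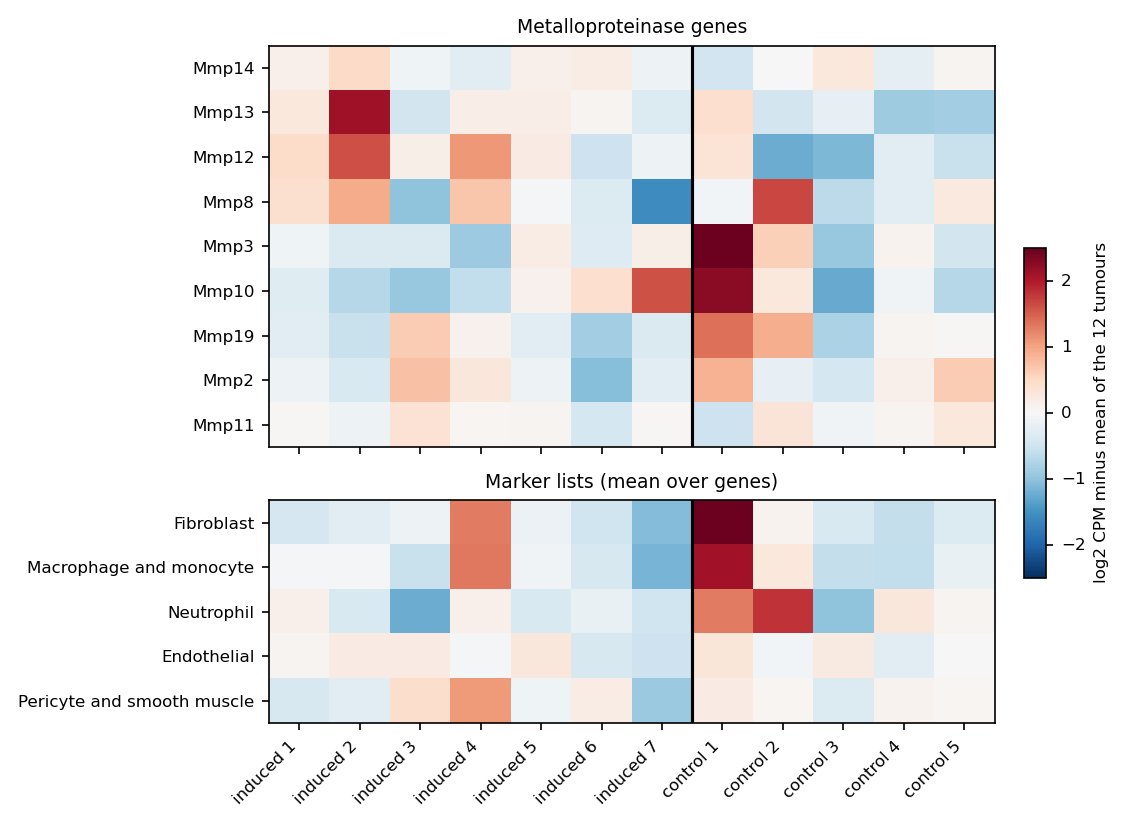
Heat map of log2 CPM minus the mean of the 12 tumours for the 9 genes (top) and of the mean over genes of marker lists (bottom), with induced tumours left of the black line and control tumours right of it. Induced 2 is highest in Mmp13 and Mmp12, and control 1 is highest in Mmp3, Mmp10, Mmp19, Mmp2 and the fibroblast list.

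The stromelysins Mmp3 and Mmp10 had lower means in induced tumours, and without control 1 the difference shrank in Mmp3 and changed sign in Mmp10. Stromelysins cut proteoglycans, laminin and fibronectin, and can activate other proMMPs. Mmp3, stromelysin-1, ranged from 2.40 CPM in induced 4 through a median of 3.67 to 5.22 CPM in induced 5, and was at 25.5, 6.97, 2.35, 4.90 and 3.30 CPM in control 1 to control 5. The other 4 control tumours spanned the induced range, and control 1 stood far above every other tumour. Over all tumours the log2 fold change was -1.12 (SE 0.49, interval -2.17 to -0.07), without control 1 it was -0.16 (SE 0.29), and without control 1 and control 2 it was 0.16. It was 0.30 (SE 0.26) without the 4 libraries that stood apart. In the limma-voom fit, which weights tumours by quality, it was 0.02.

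Mmp10, stromelysin-2, was the scarcest member, with 8 to 155 counts per tumour. It ranged from 0.506 CPM in induced 3 through a median of 0.845 to 3.40 CPM in induced 7, and was at 5.37, 1.30, 0.391, 0.999 and 0.613 CPM in control 1 to control 5. Control 1 and induced 7 were high and all others were under 1.5 CPM. Its log2 fold change was -0.49 (SE 0.64, interval -1.88 to 0.89), with 0.57 (SE 0.54) without control 1, -1.0 without induced 7, and 1.16 (SE 0.56) without the 4 libraries that stood apart. A 95% interval of the difference by the exact permutation test reached from -1.58 to 1.23 on the log2 scale, which covers folds from 0.334 to 2.35.

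Mmp11, stromelysin-3, which is known as a product of tumour fibroblasts and is activated by furin inside the cell, had the lowest coefficient of variation of the 9. It ranged from 17.8 CPM in induced 6 through a median of 24.9 to 31.2 CPM in induced 3, and was at 16.8, 30.2, 22.9, 25.4 and 29.0 CPM in control 1 to control 5. Both groups covered nearly the same range. The log2 fold change was -0.02 (SE 0.15, interval -0.35 to 0.31), and the 95% interval of the exact permutation test covered folds from 0.779 to 1.27. That coefficient was 17.7% over the 12 tumours for Mmp11 and 18% for Mmp14, against a median of 21.6% over all genes tested. Mmp3 (106.9%) and Mmp10 (102.2%) varied more than 97.98% and 97.7% of all genes tested.

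Mmp19, a secreted protease of basement membrane substrates, ranged from 4.86 CPM in induced 6 through a median of 7.35 to 13.9 CPM in induced 3, and was at 23.3, 16.8, 5.18, 9.44 and 9.19 CPM in control 1 to control 5. Control 1 and control 2 were the highest 2 tumours, induced 3 was next, and 5 of 7 induced tumours lay below the control median of 9.44 CPM. Over all tumours the log2 fold change of Mmp19 was -0.67 (SE 0.34, interval -1.40 to 0.06), with -0.34 without control 1, 0.01 without control 1 and control 2, and -0.29 without all 4 libraries that stood apart. Of the 10 fibroblast markers, 10 had a log2 fold change below 0, where 50.2% of all genes tested did, and none passed the test. Their sums were 611 to 1992 CPM in induced tumours and 769 to 3131 CPM in control tumours. Control 1 held the highest sum, and the other control tumours had 769 to 1295 CPM. None of the 10 markers was at 0 in all tumours. The same tumours, control 1, control 2, induced 3 and induced 4, were the 4 highest for Mmp19 and for this sum. The Spearman correlation of Mmp19 with the fibroblast list was 0.67 over the 12 tumours and -0.05 over the other 8. With Col3a1, itself on that list, it was 0.96 over the 12 and 0.95 over the 8. With the neutrophil list it was 0.57 over the 12 and 0.71 over the 8. With the 1 T cell marker tested it was -0.13 over the 12 and -0.88 over the 8. The part of fibroblast or other cell content in the Mmp19 values was not tested.

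**Figure D4:**
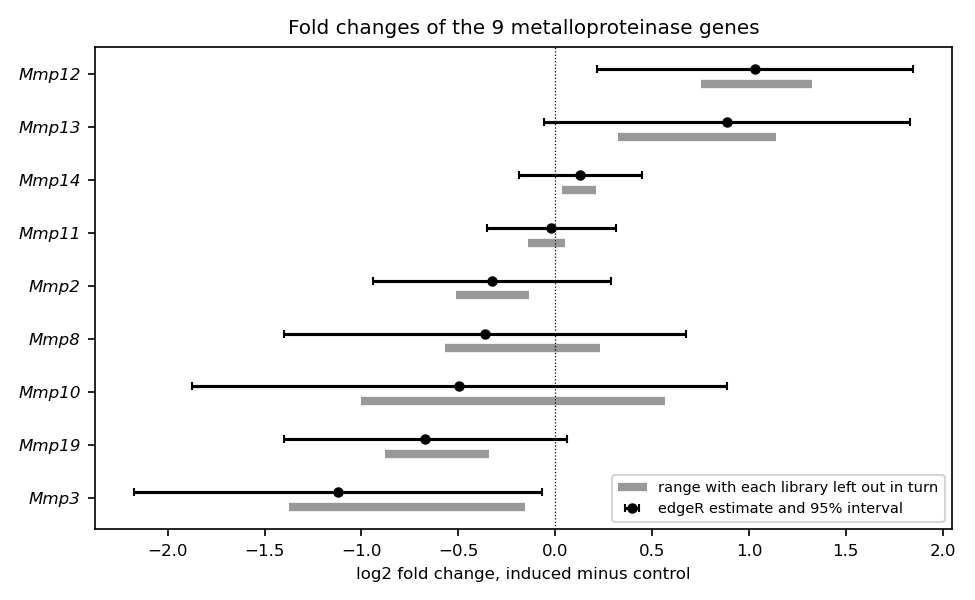
Log2 fold change of each gene, induced minus control, with its 95% interval from edgeR (black) and the range of the estimate when each of the 12 tumours was left out in turn (grey). The intervals of Mmp12 and Mmp3 do not reach 0, and the grey range of Mmp3 runs from -1.38 to -0.16.

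Of the 9 members, 3 had a fold change above 0 and 6 below, with a median log2 fold change of -0.33. Over all genes tested 49.8% were above 0 and 50.2% below, with a median of -0.00083. This split was not stable. Without control 1 and control 2, 7 members were above 0, and without the 4 libraries that stood apart 6 were. In the authors' deposited table the log2 fold changes of all 9 members equalled those of the DESeq2 fit here, so their signs are not separate support. The unadjusted p in that table was 0.00599 for Mmp12, 0.0166 for Mmp3, 0.038 for Mmp13 and 0.0497 for Mmp19. The adjusted p there was 0.994 for all 9.

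Some members varied together across tumours, with a Spearman correlation over 0.7 in 3 pairs and as strong a negative one in 2 pairs. Spearman correlations of log2 CPM over the 12 tumours are given as descriptions, without a test, and 36 pairs were computed, with a median of 0.08. The tumours share tissue makeup and normalisation, so such values do not show a direct link between genes. Mmp3 and Mmp10, the stromelysins of the chromosome 9 cluster, had 0.85 (Pearson 0.84), and 0.81 over the 8 tumours left without the 4 that stood apart. Without control 1 and control 2, the tumours farthest from the median of Mmp3, the Pearson correlation was 0.70. Mmp12 and Mmp13, which lie next to each other, had 0.76 (Pearson 0.74), 0.69 over the 8 tumours, and a Pearson correlation of 0.51 without control 2 and induced 2. Across these pairs, Mmp3 had 0.007 with Mmp12 and 0.12 with Mmp13 over the 12 tumours. Mmp10 had 0.02 with Mmp12 and 0.17 with Mmp13. Mmp2 and Mmp19, on different chromosomes, had 0.83 (Pearson 0.77), 0.95 over the 8 tumours, and a Pearson correlation of 0.56 without control 1 and induced 6.

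Mmp14 varied against Mmp2 and Mmp19. The Spearman correlation with Mmp2 was -0.73 (Pearson -0.66), -0.71 over the 8 tumours, with a Pearson correlation of -0.52 without control 1 and induced 6. That with Mmp19 was -0.77 (Pearson -0.72), -0.74 over the 8 tumours, with a Pearson correlation of -0.54 without control 1 and induced 2. Mmp11 followed Mmp2 closely among the 8 tumours (0.98) but not among all 12 (0.41), where control 1 was highest in Mmp2 and lowest in Mmp11.

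**Figure D5:**
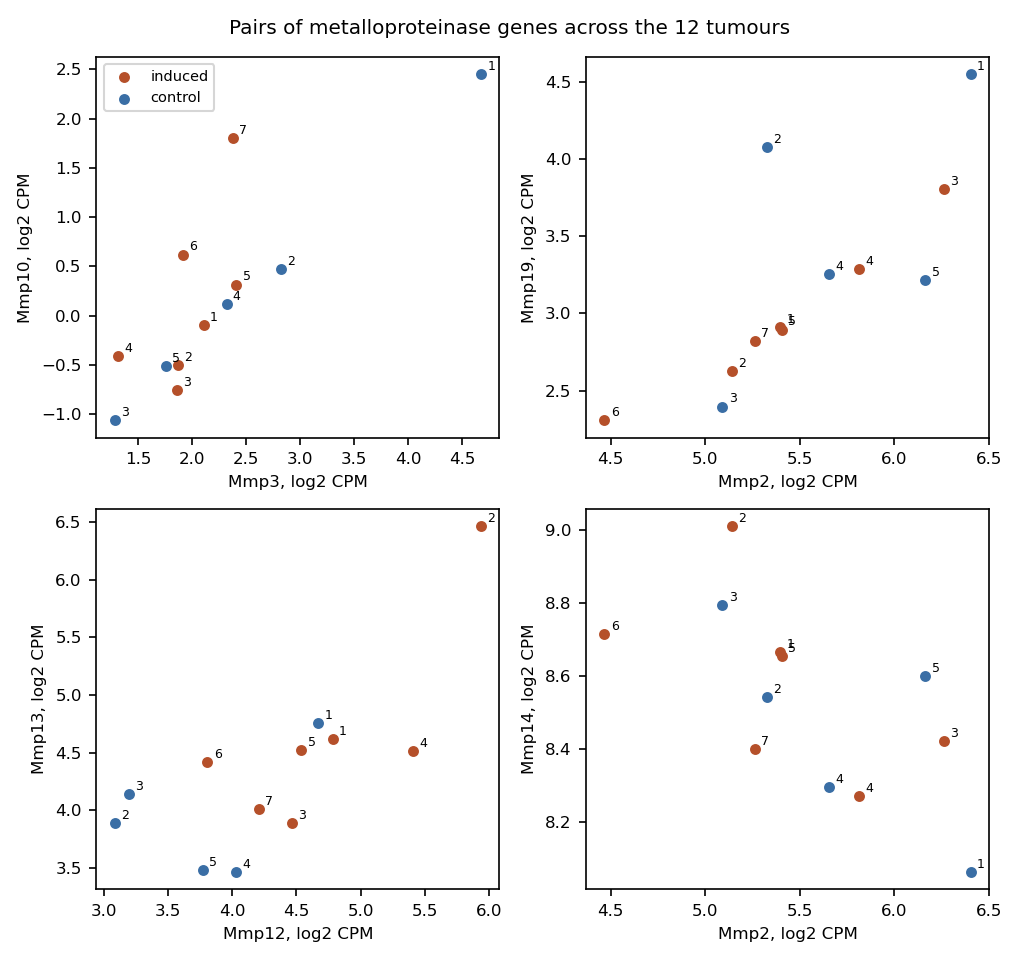
Log2 CPM of 4 pairs of genes, with 1 point per tumour, induced tumours in brown, control tumours in blue and the replicate number beside each point. Mmp3 and Mmp10, Mmp2 and Mmp19, and Mmp12 and Mmp13 run upwards together, while Mmp14 tends to be lower where Mmp2 is higher, with control 5 high in Mmp2 and not low in Mmp14.

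Among genes outside the group, the closest to each member were found by Spearman correlation of log2 CPM over the 12 tumours. Mmp19 was closest to Stat6 and Ssh3 (Spearman 0.97 each) and Col3a1, a fibrillar collagen of fibroblasts (0.96), and Mmp2 to Itm2b (0.97). Mmp11 was closest to Adck2 (0.97), then to Rap1gap (0.96) and Pdgfra, a growth factor receptor of fibroblasts (0.94), while its correlation with the fibroblast list was 0.13. Mmp8 was closest to Gzma (0.85) and then to C5ar1, the complement receptor of myeloid cells (0.82), and Mmp3 to Prdm1 (0.83). Mmp10 was closest to Cstdc4 (0.85), Mmp12 to Pik3r1 (0.87), Mmp13 to Acer3 (0.92) and Mmp14 to Bcl6b (0.97). Without the 4 libraries that stood apart, 3 of the 5 closest genes of Mmp8 were again among its 5 closest, and 0 of 5 for the other 8 members, so these names depend on the tumours used.

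The inhibitors of MMPs did not pass the test either. Of the TIMP genes, 3 of 4 were tested, with 2 higher, 1 lower and none past the test. Timp2, which binds MT1-MMP in the complex that activates proMmp2, was at 497 ± 107.1 CPM in induced tumours and 436 ± 34.1 CPM in control tumours (SD, n = 7 and n = 5), with a log2 fold change of 0.19 (SE 0.14). Timp1 was at 29.9 ± 5.40 CPM in induced tumours and 29.1 ± 7.22 CPM in control tumours. Timp3, the matrix-bound inhibitor, was at 0.898 to 8.90 CPM in induced tumours and 0.545 to 21.8 CPM in control tumours. Of the 3 other inhibitors tested, 1 was higher and 2 lower, with Reck, a membrane-anchored inhibitor of MMPs, at 2.08 ± 0.501 CPM in induced tumours and 2.68 ± 1.38 CPM in control tumours.

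Of 12 genes for activators, 7 were tested, with 4 higher, 3 lower and none past the test. Pcsk6, a proprotein convertase, had the smallest p of the list, with 0.634 ± 0.697 CPM in induced tumours and 1.42 ± 2.54 CPM in control tumours. Its control values ran from 0.0943 to 5.96 CPM, so the highest was far above the control mean. Plat, tissue-type plasminogen activator, was at 105 ± 31.2 CPM in induced tumours and 94.1 ± 11.1 CPM in control tumours, and Plaur, the urokinase receptor, at 229 ± 43.7 CPM in induced tumours and 210 ± 37.9 CPM in control tumours. Of 13 other MMP genes, 4 were tested (Mmp15, Mmp23, Mmp27 and Mmp28), and all 4 were lower without passing the test, with log2 fold changes of -0.93 to -0.03. In the fit without control 1, which tested its own set of genes, 2 genes of this list were higher.

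Among 14 ADAM and ADAMTS proteases, a related family of metalloproteinases, 3 were higher and 11 lower, with a median log2 fold change of -0.13 and none past the test. Without control 1 alone 11 of the 14 were higher, and without control 1 and control 2 all 14 were. Adamts5, an aggrecanase, had the smallest p of the list, with 1.28 ± 0.986 CPM in induced tumours and 3.88 ± 6.56 CPM in control tumours. Its control values ran from 0.440 to 15.6 CPM, so the highest was far above the control mean. Of the 11 matrix substrates tested, 2 were higher and 9 lower, with a median of -0.10 and none past the test. Without control 1, 7 genes of this list were higher. Eln, elastin, a substrate of Mmp12, was at 0.202 to 8.12 CPM in induced tumours and 0.455 to 47.6 CPM in control tumours (log2 fold change -2.45, SE 1.09). The means and SDs were 1.99 ± 2.79 CPM in induced tumours and 11.0 ± 20.5 CPM in control tumours. The highest control value was thus far above the control mean, and the fold change leans on it. Of 16 regulators tested, 9 were higher and 7 lower, with a median of 0.01 and none past the test. Il1b, interleukin-1 beta, a cytokine known to induce several MMPs, was at 9.04 ± 4.21 CPM in induced tumours and 23.7 ± 17.7 CPM in control tumours, with a log2 fold change of -1.40 (SE 0.49). Jun, a subunit of AP-1, was at 363 ± 69.5 CPM in induced tumours and 330 ± 17.6 CPM in control tumours. Fosl1, another subunit, was at 309 ± 57.4 CPM in induced tumours and 305 ± 48.5 CPM in control tumours.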

How the data were processed

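Bulk RNA-seq of 12 mouse tumours was analysed, with groups taken from the sample titles. The labels also hold culture and treatment protocols of another cell line, which were not used. The table the authors deposited holds raw counts for each gene, rlog values on the log2 scale (not used here), and the authors' own log2 fold changes, signed fold change scores and p-values, all per the file headers. The build was GRCm38 (mm10), per the submitters' processing notes, and the labels name no aligner, counting tool, strand setting or test.

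Counts were fitted with edgeR 4.0.16 in R 4.3.3 (filterByExpr by group with a minimum count of 10, TMM factors, robust quasi-likelihood F test, two-sided, Benjamini-Hochberg adjustment over all 15199 genes tested, threshold 0.05). SE is the absolute log2 fold change divided by the root of F. CPM uses TMM factors, and log2 CPM a prior count of 2. The exact permutation test used all 792 choices of 5 of 12 tumours, with a smallest possible p of 0.00126, and intervals came from inverting it in steps of 0.01. Exon lengths and positions came from GENCODE mouse release 21. The labels do not say that tumours came from separate mice, so p-values measure the spread between these samples.

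The members and lists were chosen with earlier results of these data known. By rule, the 9 members, the 5 genes closest to each (mean log2 CPM over 1) and up to 3 genes per list with the smallest p could be named. Jun, Fosl1, Mmp15 and the 4 tumours that stood apart were singled out after values were seen. Alternatives were other size factors, filters and tools (DESeq2 1.42.0, limma 3.58.1), a replicate block, and leaving out tumours. Fits without 2 or 4 tumours were added after seeing the data. The result of 1 related list is not reported here.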

Additional observations from a re-analysis of the deposited data

Results flagged for a closer look

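Mmp13 in induced 2 was at 88.6 CPM, and its gap to the next induced tumour on the log2 scale was 0.717 of the range of the 7 induced tumours, where 0.568 is the critical value for 7 samples. It was the only outlying tumour among the 18 combinations of 9 genes and 2 groups examined. Chance flags about 1 in 20 combinations, so 1 flag among 18 is near what chance gives. Induced 2 was also the highest tumour for Mmp12, at 61.1 CPM, and for Mmp14, at 516 CPM. Control 1, at 25.5 CPM of Mmp3, did not pass this criterion in the group of 5.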

How the results depend on the processing

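No member and no gene passed the threshold in any of the 23 alternative fits. The signs of Mmp2, Mmp12, Mmp13 and Mmp14 held in all 23, with ranges of the log2 fold change of -0.55 to -0.14, 0.76 to 1.32, 0.32 to 1.38 and 0.03 to 0.21. The number of members above 0, which was 3, was 5 with limma-voom, 5 with the replicate block, 3 to 5 with single tumours left out, 7 without control 1 and control 2, and 6 without control 1, control 2, induced 3 and induced 4. Log2 fold changes that changed sign were 0.016 for Mmp3 and 0.42 for Mmp10 with limma-voom, which gives less weight to tumours that vary more. Without control 1 and control 2 they were 0.16 for Mmp3, 0.26 for Mmp8, 0.88 for Mmp10 and 0.015 for Mmp19, and without all 4 tumours 0.30 for Mmp3, 0.25 for Mmp8 and 1.16 for Mmp10. With single tumours left out the ranges were -0.57 to 0.23 for Mmp8, -1.0 to 0.57 for Mmp10 and -0.14 to 0.050 for Mmp11. The replicate block, on the 10 tumours with shared numbers, gave 0.00082 for Mmp8 and 0.065 for Mmp11. Same-numbered tumours did not deviate together, with correlations of -0.53 to 0.21, so the numbers were not taken as pairs, and the block changed no call. Counts of list members above 0 stayed within 1.5 times the main count in 127 of 176 list and setting combinations. With single tumours left out, the number above 0 was 1 to 11 for the ADAM and ADAMTS proteases, 1 to 7 for the substrates, 0 to 2 for the other MMPs, 0 to 2 for the other inhibitors and 1 to 3 for the TIMPs. Depth limits Mmp10 most, with as few as 8 counts in a tumour.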
